A study of Mus musculus with 15 samples.

Results

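The striatum of wild-type (WT) mice is described here from 7 of the 15 RNA-seq libraries of a study of Huntington's disease knock-in mice, taken as the count columns of WT replicates 1 to 7. Each library came from the striatum of a different mouse, aged 6 months, kept on a 12-h light cycle, with no treatment named. The other 8 libraries came from the same tissue and age in the knock-in lines E1 and KI-96, with 4 mice in each. The sources used here do not give strain, sex or how the tissue was dissected, and the 7 mice are labelled WT with no other allele. The question was which genes fill the transcriptome of this tissue, and how far each gene's level differs from mouse to mouse.

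The striatum is the main input nucleus of the basal ganglia. Most of its neurons are GABAergic spiny projection neurons, which carry dopamine receptors and a large signalling machinery built on cyclic AMP and calcium. Direct pathway neurons express the dopamine receptor Drd1 and the peptides substance P and dynorphin, and indirect pathway neurons express Drd2, Adora2a and enkephalin. Interneurons, astrocytes, myelinating oligodendrocytes, microglia and vessel cells share the tissue, and cortex, septum, pallidum and the choroid plexus of the ventricle lie beside it. A level in whole tissue cannot tell apart more cells of a type from more RNA per cell.

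The 7 libraries held 17281603 to 26388542 counts over 54232 gene identifiers, and their 1000 highest autosomal genes took 45.4% to 48.0% of the counts. Mitochondrial genes took 4.68% to 5.84% of the counts. Autosomal genes alone are ranked and described; WT replicate 1 had 0 counts on the Y-linked genes and the other 6 had 2680 to 5755. WT replicate 3 stood apart on the first principal component of the autosomal genes (32.3% of the variance) and WT replicate 2 on the second (20.5%), so results that rest on either are also given without it, a choice made after the values were seen.

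The labelled tissue was checked against 3 markers of spiny neurons. Ppp1r1b encodes DARPP-32, the dopamine- and cyclic AMP-regulated inhibitor of protein phosphatase 1, and lies at chr11:98348404-98357796 of GRCm38. Its lowest, median and highest levels over the 7 libraries were 1185, 1631 and 2251 CPM (counts scaled to a common library size). Pde10a, the cyclic nucleotide phosphodiesterase of these neurons, stood at 1242, 1456 and 2002 CPM. Penk, the precursor of enkephalin, stood at 722, 935 and 1182 CPM. All 3 were among the highest autosomal genes in every library, with worst ranks by CPM of 40 for Ppp1r1b, 44 for Pde10a and 119 for Penk among 15003 genes. WT replicate 2 was highest for Ppp1r1b and Pde10a, WT replicate 7 for Penk, and WT replicate 6 was lowest for Ppp1r1b and Pde10a.

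CPM counts fragments whatever the length of the transcript. By this measure Mbp, the myelin basic protein, was first in every library, with 6292 ± 745 CPM (SD, n = 7). Kif5a, a neuronal kinesin motor, followed with 4137 ± 396 CPM, and the imprinted long noncoding RNA Meg3 with 4101 ± 341 CPM. Those 2 lie within their SD of each other and exchanged places between libraries.

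The astrocytic glutamate transporter Slc1a2 averaged 2575 ± 272 CPM and the nuclear noncoding RNA Malat1 averaged 2573 ± 646 CPM. The rest of the 20 highest included, from high to low, Ndrg4, Ppp3ca, Scd2, Camk2n1, Camk2a, Fth1, Cpe, Ckb, Mobp, Snhg11, Ncdn, Apoe and Eef1a1, from 2343 ± 159 CPM for Ndrg4 to 1752 ± 89.2 CPM for Eef1a1. Ppp1r1b followed at rank 21, with 1681 ± 346 CPM. Of the 20, 12 were among the 20 highest in all 7 libraries. Means that are neighbours in this order mostly differ by less than 1 SD, so the order within the group is loose.

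Dividing by the length of the merged exons changes what leads, because the genes at the top by CPM are long. The 20 highest by CPM had a median of 5.71 kilobases of merged exon, the 20 highest by CPM per kilobase had 2.46, and all 14345 protein-coding and long noncoding genes ranked per kilobase had 4.44. The lists of 20 shared 7 genes (Mbp, Kif5a, Apoe, Cpe, Ckb, Eef1a1 and Fth1), and the lists of 50 shared 29, or 58% of each. Slc1a2 moved from rank 4 by CPM to rank 100 per kilobase, Meg3 from 3 to 78 and Pde10a from 29 to 218. In the other direction Rplp1 moved from 181 to 1 and Cox8a from 483 to 20.

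Per kilobase, Rplp1, an acidic protein of the large ribosomal subunit, was first with 1068 ± 168 CPM per kilobase. Cst3, the secreted protease inhibitor cystatin C, had 894 ± 107, the selenoprotein Selenow had 870 ± 160, the calmodulin gene Calm2 had 841 ± 122, and the lipoprotein gene Apoe had 828 ± 67.6 CPM per kilobase. Ranks 2 to 5 lie within 1 SD of each other. Calm2 and Calm3 encode the same protein and can share reads, so the split between them is less certain than their sum.

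Penk and Ppp1r1b were level per kilobase, at 560 ± 103 and 574 ± 118, ranks 15 and 13. Hpca, the calcium sensor hippocalcin, had 530 ± 137 CPM per kilobase at rank 18. Neurogranin (Nrgn), a postsynaptic protein that binds calmodulin, had 702 ± 357, the widest spread of the 20. The remaining places went to Ckb, Cox6a1, Calm3, the amyloid precursor-like Aplp1, the lysosomal prosaposin Psap and Cox8a. Of the 20, 11 were among the 20 highest per kilobase in every library.

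**Figure D1:**
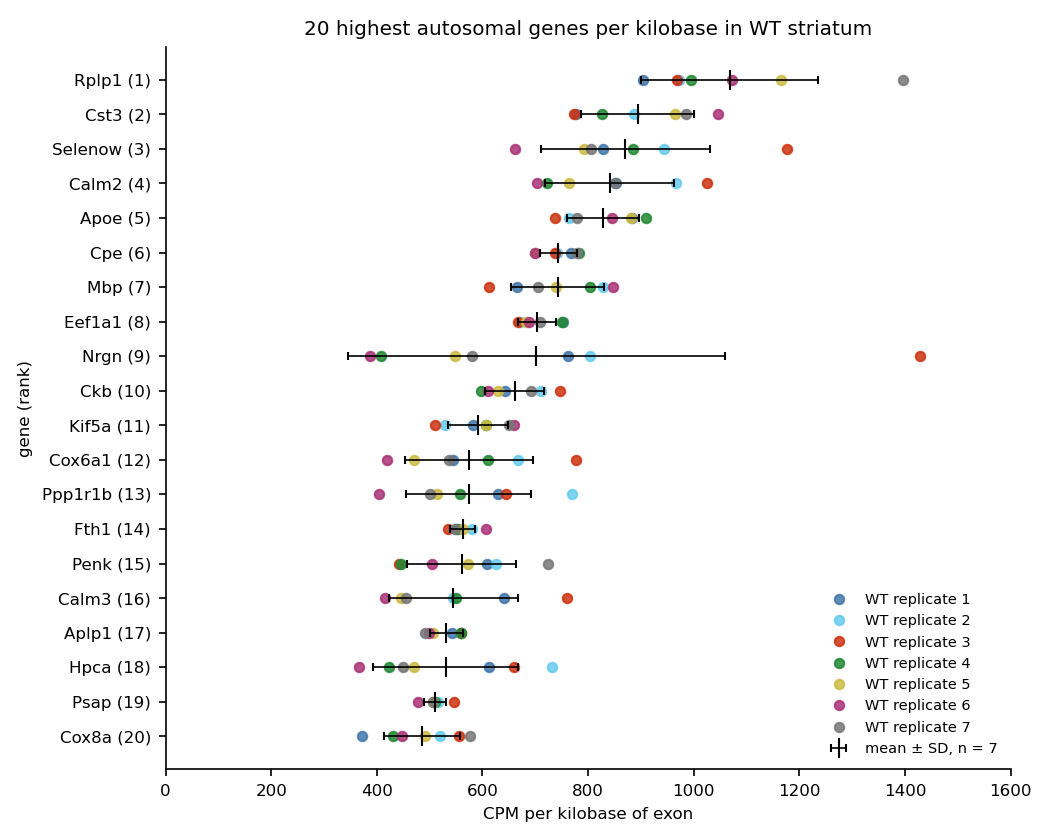
The 20 highest autosomal genes per kilobase of merged exon, with rank in brackets; each coloured point is 1 WT library and the black mark and bar are the mean and SD of the 7. Most genes lie within a narrow band, while Nrgn runs from WT replicate 6 to a far higher WT replicate 3.

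The 50 leading genes were sorted by function and cell type. By CPM, 9 belonged to a list of 16 calcium and calmodulin signalling genes, among them Ppp3ca, the catalytic subunit of calcineurin, and the kinase subunits Camk2a and Camk2b. Another 7 belonged to a list of 27 genes shared by spiny neurons (Ppp1r1b, Adcy5, Hpca, Pde10a, Scn4b, Pde1b and Arpp21), 4 to astrocytes (Slc1a2, Apoe, Glul and Sparcl1), 4 to the cytoskeleton, 3 to glycolysis and ion pumping and 3 to long noncoding RNA (Meg3, Malat1 and Snhg11). Myelin contributed Mbp and Mobp. In no list were 11 of the 50, including Ndrg4, the stearoyl-CoA desaturase Scd2, Aplp1 and App. One of those 11, CT010467.1, is annotated as ribosomal RNA and ran from 572 to 2378 CPM, with WT replicates 5 and 7 highest.

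Per kilobase the balance moved to short housekeeping genes. Cytosolic ribosomal protein genes held 5 of the 50 places (Rplp1, Rps15, Rpl36, Rps29 and Rps21) against 0 by CPM, and the respiratory chain held 2 (Cox6a1 and Cox8a). Translation factors, ubiquitin and ferritin held 5, calcium and calmodulin signalling 6, glycolysis and ion pumping 4, astrocytes 4 and the shared spiny neuron list 3, Ppp1r1b and Hpca among them. Ppp1r1b, Hpca, Mbp, Apoe and the synaptic complexin Cplx2 were among the 50 by both measures.

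The median level of a list, per kilobase over the members that passed the filter on low counts, can be set against 4.88 CPM per kilobase over all 15003 autosomal genes tested. It was 360 for the 9 genes of translation factors, ubiquitin and ferritin, 228 for the 16 of calcium signalling, 146 for the 22 of glycolysis and ion pumping, 89.3 for the 73 cytosolic ribosomal protein genes and 52.5 for the 77 respiratory chain genes. Among cell types it was 81.7 for 20 myelin and oligodendrocyte genes, 70.2 for 27 shared spiny neuron genes, 60.5 for 20 astrocyte genes, 13.4 for 17 microglia genes, 9.09 for 12 oligodendrocyte precursor genes and 3.28 for 13 endothelial genes. These lists were made of genes known for their abundance in each type, so the medians describe the lists and do not measure cell numbers.

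Within the spiny neuron genes, receptors stood well below the signalling enzymes. The adenosine receptor Adora2a had 125 ± 16.5, Drd2 had 97.5 ± 18.3 and Drd1 had 67.5 ± 11.0 CPM per kilobase, with ranks 200, 283 and 494. Those for the direct pathway peptides were 55.4 ± 9.00 for Tac1, the precursor of substance P, and 46.6 ± 12.4 for Pdyn, the precursor of dynorphin. Penk, of the indirect pathway, thus stood above both in every library, on the same scale. The median over the 5 indirect pathway genes found was 97.5 and that over the 9 direct pathway genes was 20.3 CPM per kilobase.

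Interneuron genes ranged widely. Somatostatin (Sst) had 213 ± 39.9 CPM per kilobase at rank 86, Npy had 78.1 ± 18.4 and parvalbumin (Pvalb) had 75.5 ± 32.0. Chat, which makes acetylcholine in the cholinergic interneurons, had 6.72 ± 0.807. The 16 interneuron genes had a median of 5.95, near that of all genes.

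Markers of neighbouring tissue were low but present. The median over the members tested was 2.93 CPM per kilobase for cortical excitatory neurons, 1.74 for thalamus and pallidum, 0.815 for septum and hypothalamus and 0.784 for choroid plexus. No member of those 4 lists was at 0 counts over the 7 libraries. Summed over each list, WT replicate 3 held 1246 CPM of cortical genes against 128 to 201 CPM in the other 6, WT replicate 2 held 937 CPM of choroid plexus genes against 357 to 494 CPM, and WT replicate 1 held 77.9 CPM of septal and hypothalamic genes against 31.9 to 49.8 CPM.

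**Figure D2:**
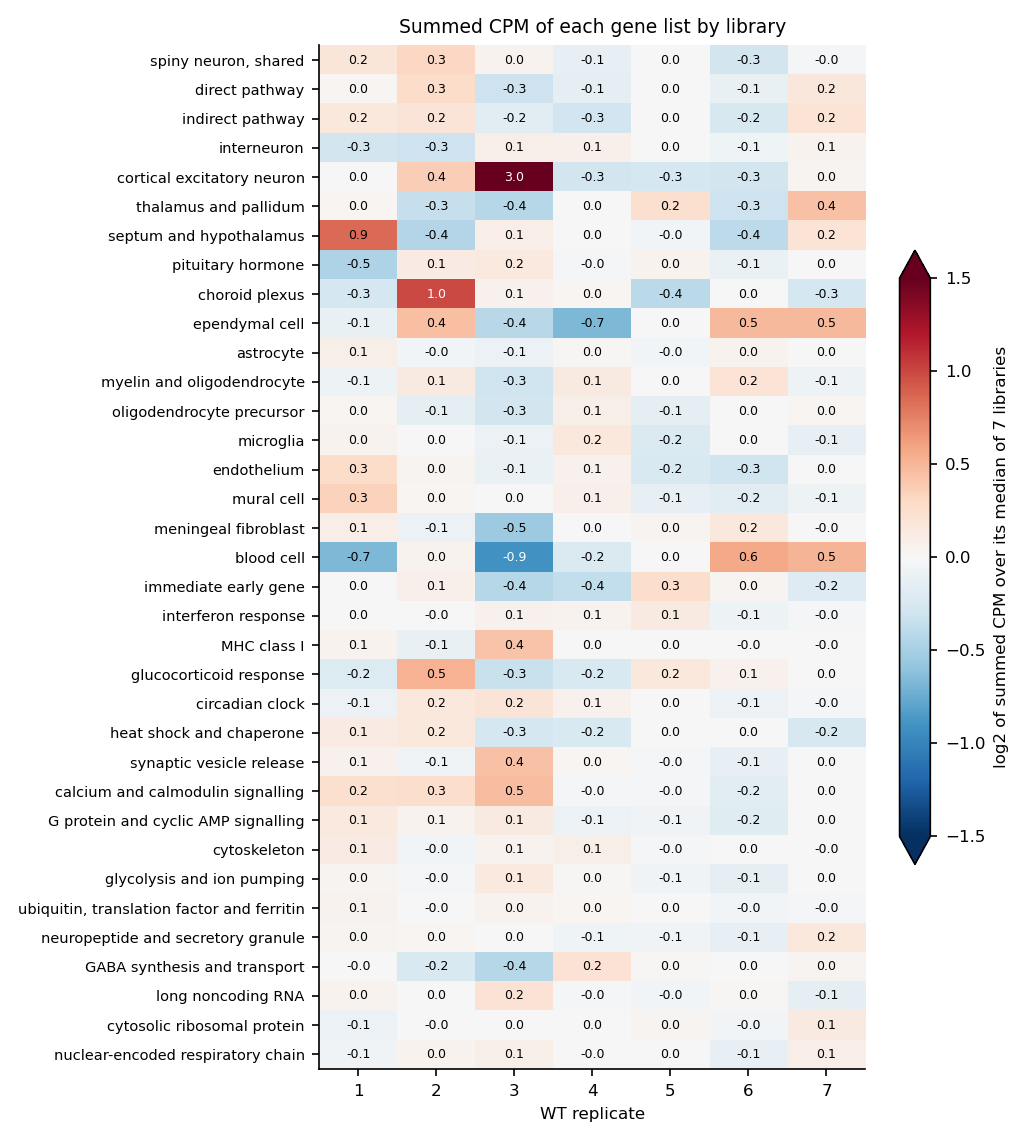
Summed CPM of each gene list (rows) in each WT library (columns), as the log2 ratio to the median of the 7 libraries; red is above and blue below the median, with the value printed. Cortical genes in WT replicate 3 and choroid plexus genes in WT replicate 2 stand out, while housekeeping and astrocyte lists stay near 0.

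Spread between mice was measured as the biological coefficient of variation (CV), the SD over the mean with Poisson counting noise taken out. Because each library is of a different mouse, differences in dissection, RNA or library preparation remain in this value. They cannot be told apart from differences between mice. A chi-square test of each gene's counts, with 6 degrees of freedom, found more than counting noise in 12484 of 15003 autosomal genes, or 83.2%, at an adjusted p under 0.05. All 50 leading genes of either ranking were among them. The median biological CV was 0.111, with quartiles of 0.0704 and 0.178. It was 0.182 for the 4855 genes from 1 to 10 CPM, 0.0935 for the 7615 from 10 to 100 CPM, 0.0925 for the 2175 from 100 to 1000 CPM and 0.114 for the 64 genes above. The median counting CV was 0.120 from 1 to 10 CPM and 0.0388 from 10 to 100 CPM, so counting noise weighs most on the low genes.

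A stricter question is which genes spread more than others of like abundance. Against the trend of dispersion on abundance fitted by edgeR, 549 of 15003 autosomal genes, or 3.66%, passed the goodness-of-fit test at an adjusted p under 0.05. That share was 3.87% of protein-coding genes, 1.57% of long noncoding genes and 3.78% of pseudogenes. For 237 of the 549 (43.2%) the highest library was WT replicate 3, which was highest for 21.6% of all genes tested. In 113 of those 237 its level was at least 2 times the next library's. Without WT replicate 3, 408 genes passed, of which 303 were among the 549.

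**Figure D3:**
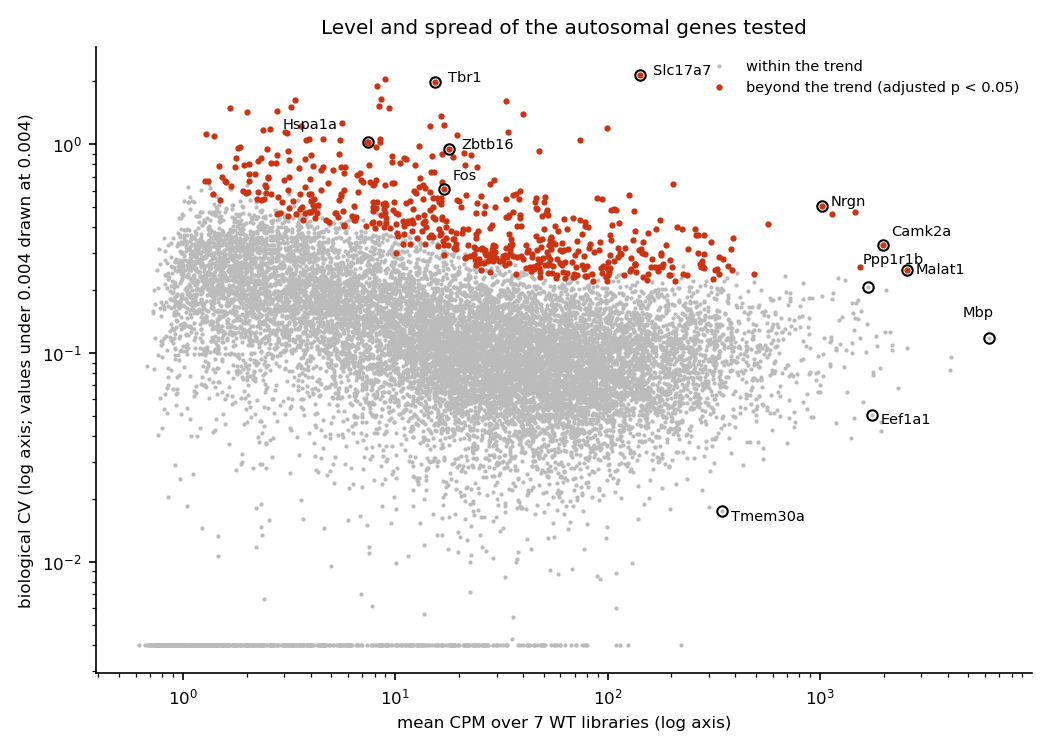
Biological CV against mean CPM for the autosomal genes tested, both axes on a log scale; red genes spread beyond the trend for their abundance and circles mark genes named in the text. Slc17a7 and Nrgn lie far above genes of similar level, whereas Eef1a1 and Tmem30a lie low.

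The leading genes spread about as much as all genes tested or a little more. The median biological CV of the 50 highest by CPM was 0.111 and of the 50 highest per kilobase 0.126, beside 0.111 over all genes tested and 0.0925 over those from 100 to 1000 CPM. Some were far steadier: the ferritin gene Fth1 (biological CV 0.0425), the peptide-processing enzyme Cpe (0.0467), Eef1a1 (0.0506) and Psap (0.0390). Fth1 lay between 1855 and 2103 CPM and Psap between 1312 and 1500 CPM.

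Beyond the trend were 4 of the 50 by CPM (Malat1, Camk2a, Hpca and CT010467.1) and 3 of the 50 per kilobase (Nrgn, Hpca and Malat1), or 8% and 6% beside 3.66% of all genes. Malat1 ran from 1711 through 2417 to 3460 CPM, highest in WT replicate 3, and its call (edgeR adjusted p = 0.0208) was lost without WT replicate 2 (adjusted p = 0.0592) and in the edgeR fit with no filter on low counts (adjusted p = 0.0744). Nrgn ran from 563 CPM in WT replicate 6 through a median of 843 to 2076 in WT replicate 3 (biological CV 0.509, edgeR adjusted p = 5.23e-13). Camk2a ran from 1465 through 1765 to 3344 CPM, again with WT replicate 3 highest (edgeR adjusted p = 0.000667). Camk2a encodes a subunit of the postsynaptic kinase CaMKII. Cortical genes were highest in the same library, with 1246 CPM in sum, and their part in these values was not tested. Without that library the biological CV of Nrgn was 0.298, still beyond the trend, and that of Camk2a was 0.157, which did not pass (edgeR adjusted p = 0.830).

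Hpca showed another pattern, with 1792, 2137 and 1925 CPM in WT replicates 1 to 3 and 1072 to 1374 CPM in the other 4. Its spread passed the goodness-of-fit test (edgeR adjusted p = 0.0156), but not without WT replicate 2 (edgeR adjusted p = 0.400). That test is of the spread over the libraries, not of this split, which was read off the values. How many of all genes split this way was not counted. The cannabinoid receptor Cnr1 was split likewise, at 373 to 408 CPM in the first 3 and 154 to 248 CPM in the rest (edgeR adjusted p = 3.61e-08). Of the 27 shared spiny neuron genes, 4 passed (Hpca, Cnr1, Strip2 and Pcp4), or 14.8% beside 3.66% of all genes. Without WT replicate 3, 7 of the 27 passed, beside 2.66% of all genes. Ppp1r1b, Penk and Pde10a had biological CVs of 0.206, 0.184 and 0.180 and did not pass (edgeR adjusted p = 0.258, 0.599 and 0.835); Ppp1r1b passed once WT replicate 3 was left out.

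The 15 most even of the 2239 genes at 100 CPM or more were in none of the cell type lists. Ociad1, an endosomal and mitochondrial protein, lay between 219 and 227 CPM in all 7 libraries, and its spread did not pass the test against counting noise (chi-square adjusted p = 0.556). Tmem30a, a subunit of phospholipid flippases, lay between 336 and 358 CPM. The others of the 15 with the smallest biological CV included Smim14, Ube2h, Ulk2, Wdr47, Hnrnpr, Mbtps1, Dnm1l, Mrfap1, Glyr1, Prex1, Gabarap and Vdac3, and the largest value among the 15 was 0.0215. They include RNA-binding (Hnrnpr), autophagy (Ulk2 and Gabarap) and mitochondrial genes (Dnm1l and Vdac3).

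The 25 most variable genes were ranked by biological CV among autosomal protein-coding and long noncoding genes at a mean of 1 CPM or more. Genes with a predicted or clone symbol (Gm with a number, or Rik) were left out of this ranking. WT replicate 3 was highest in 23 of the 25, beside 21.6% of all genes tested. The list included markers of cortical excitatory neurons: the vesicular glutamate transporter Slc17a7, the transcription factors Tbr1, Neurod2, Neurod6 and Emx1. It also held the vesicular zinc transporter Slc30a3, which is in none of the lists, and the peptide gene Cck, which is in the interneuron and neuropeptide lists and not in the cortical one. Of the 25, 12 fell under edgeR's filter on low counts, which asks for the equivalent of 10 counts in a median-sized library, in all 7; all 25 passed the goodness-of-fit test in the fit without that filter.

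Slc17a7 (chr7:45163949-45176142) had 11.8 CPM at the lowest, in WT replicate 5, a median of 31.3 and 826 in WT replicate 3. That is 35.7 times the median of the other 6 (biological CV 2.13, edgeR adjusted p = 1.78e-248). WT replicate 2 was second with 63.0 CPM, and the other 5 lay between 11.8 and 31.6. Tbr1, a cortical transcription factor, was at 84.6 CPM in WT replicate 3 beside a median of 3.40, and Cck from 7.76 through 11.6 to 155 CPM.

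Others of the 25 that were highest in WT replicate 3 included Igfn1, Dkkl1, Rtn4rl2, Serpinb8, Adam33, Rspo2, Bmp3, Nrn1, Myl4, Rtn4r, Prss12, Wnt10a, Nr4a2, Wnt9a and Bdnf, the neurotrophin that cortical neurons supply to the striatum. Of the 12 autosomal genes in the cortical list, none of them at 0 counts, 9 passed the filter. Of those, 6 were beyond the trend, or 66.7% beside 3.66% of all genes. The exceptions among the 9 were Kcnv1, Rspo1 and Rorb. Without WT replicate 3, 3 of 9 passed, beside 2.66% of all genes. Among presynaptic genes, 20 of 23 vesicle release genes were highest in WT replicate 3, beside 21.6% of all genes tested. Stx1a was at 147 CPM there against 27.1 to 39.6 CPM elsewhere. Beyond the trend were 4 of the 23 (Stx1a, Sv2b, Rims1 and Sncb), or 17.4% beside 3.66% of all genes. Each lost the call without WT replicate 3, where the biological CV of Stx1a fell from 0.930 to 0.138.

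**Figure D4:**
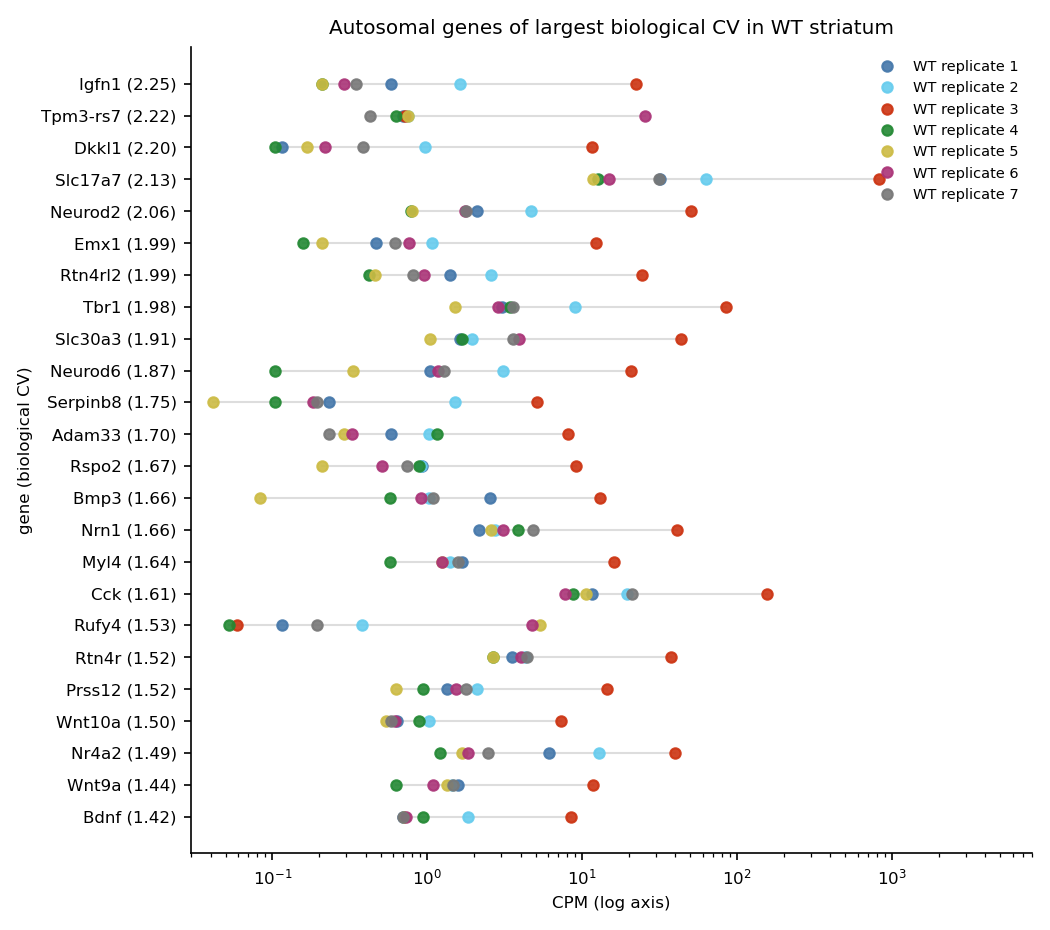
CPM of autosomal genes among the 25 with the largest biological CV (value in brackets) in each WT library, on a log axis. WT replicate 3 is the rightmost point in all but Tpm3-rs7, highest in WT replicate 6, and Rufy4, highest in WT replicates 5 and 6.

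The ranking was repeated by the same rule over the 6 libraries without WT replicate 3, a choice made after the values were seen. Its 25 most variable genes shared 5 with the first list. Tpm3-rs7 led, at 25.3 CPM in WT replicate 6 and 0.426 to 0.754 in all others. It is a near copy of Tpm3 elsewhere in the genome, so its reads are hard to place. Rufy4 was at 5.34 and 4.74 CPM in WT replicates 5 and 6 and at 0.377 or less in the other 5. Eno1b, also a copy of a gene elsewhere, held 31.1 to 35.4 CPM in WT replicates 5 to 7 and 0.417 to 0.538 in the other 4. Sycp1 held 2.36 to 2.99 CPM in the same 3 libraries and 0 in the other 4. Those 3 libraries were also the deepest, with 23457270 to 26388542 counts against 17281603 to 18945441 in the other 4. The part of depth or of a shared preparation in this split was not tested.

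Choroid plexus genes varied widely too. Ttr, the thyroid hormone carrier transthyretin, which the choroid plexus makes in bulk, was at 346 CPM in WT replicate 2 and 166 in WT replicate 3, against 20.4 to 56.6 CPM in the other 5 (edgeR adjusted p = 1.62e-95). Of 10 choroid plexus genes tested, 6 were beyond the trend (60.0% beside 3.66% of all genes). WT replicate 2 was the highest library for 9 of the 10, beside 14.2% of all genes tested. Prlr was the exception. Without WT replicate 2, 1 of the 10 passed, Ttr, beside 2.75% of all genes. The biological CV of Ttr went from 1.20 to 0.931.

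Immediate early genes are the first to respond to neuronal activity. Of 27, 13 were beyond the trend, or 48.1% beside 3.66% of all genes. This was the largest number of any list, but not the largest share. Without WT replicate 3, 13 passed, beside 2.66% of all genes, and without WT replicate 2, 12 passed, beside 2.75%. Fos was at 30.2, 29.3 and 20.3 CPM in WT replicates 5 to 7 and 17.9 in WT replicate 4. It was at 5.54 to 7.75 CPM in WT replicates 1 to 3 (edgeR adjusted p = 1.09e-14 for the spread over the 7). Npas4, a transcription factor that answers calcium entry, followed the same order at its ends, from 13.6 CPM in WT replicate 3 to 52.1 in WT replicate 5. Arc, an activity-induced synaptic gene, ran from 96.5 through 136 to 237 CPM, and Nr4a1 from 64.2 through 123 to 228 CPM, both lowest in WT replicate 3 and highest in WT replicate 5.

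The family did not move as 1 block. Nr4a2 was highest in WT replicate 3, with 39.6 CPM against 1.20 to 12.8 in the others, while its relative Nr4a3 was lowest there. Cortical genes were highest in the same library, and their part in the Nr4a2 value was not tested. Homer1 was highest in WT replicates 1 and 2, at 380 and 374 CPM, against 198 to 251 CPM in the other 5, a call lost without WT replicate 2 (edgeR adjusted p = 0.394). Egr1, the highest of the family per kilobase at 60.7 ± 12.7, ran from 191 to 340 CPM and did not pass (edgeR adjusted p = 0.132). Dusp1, Jun and Ier2 did not pass either.

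Heat shock genes were mixed, with 4 of 16 beyond the trend (Hspa1a, Dnajb1, Hspb1 and Hspa5), or 25% beside 3.66% of all genes. Without WT replicate 2, 2 passed, beside 2.75% of all genes. Hspa1a, an inducible HSP70, was at 20.1 and 15.7 CPM in WT replicates 5 and 6, 8.18 in WT replicate 2 and 1.05 to 3.72 in the other 4 (edgeR adjusted p = 2.70e-25). Its near copy Hspa1b was high in the same 3 libraries, at 38.1, 32.5 and 33.6 CPM, and at 0.366 to 7.73 CPM in the rest. Reads that match both copies cannot be assigned to one, so the ratio between them is uncertain. The constitutive Hsp90ab1 and Hspa8 ranked 23 and 62 per kilobase and did not pass (edgeR adjusted p = 1.00 and 0.616).

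The bases just upstream of 5 variable genes are shown so that their letters can be set beside their levels: the HSP70 pair, high in the same 3 libraries, Slc17a7 and Neurod2, both highest in WT replicate 3, and Fos as a single activity gene. Each is the 250 bases before the gene's start in RefSeq, on the gene's own strand, from GRCm38.p6. Hspa1a is at chr17:34972157-34972406 (minus strand), Hspa1b at chr17:34959239-34959488 (minus), Fos at chr12:85473640-85473889 (plus), Slc17a7 at chr7:45163671-45163920 (plus) and Neurod2 at chr11:98329646-98329895 (minus). Capitals mark matches on either strand to the heat shock element core GAANNTTC, the CCAAT box, the GC box GGGCGG, the TATA box TATAAA, the cyclic AMP response half-site TGACG and, in Neurod2, the E-box CAGATG.
Hspa1a: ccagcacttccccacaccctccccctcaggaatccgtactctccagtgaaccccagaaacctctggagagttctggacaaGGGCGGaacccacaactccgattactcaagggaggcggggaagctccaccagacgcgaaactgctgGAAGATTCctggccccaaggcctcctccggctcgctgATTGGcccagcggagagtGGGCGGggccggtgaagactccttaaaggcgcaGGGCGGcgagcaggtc
Hspa1b: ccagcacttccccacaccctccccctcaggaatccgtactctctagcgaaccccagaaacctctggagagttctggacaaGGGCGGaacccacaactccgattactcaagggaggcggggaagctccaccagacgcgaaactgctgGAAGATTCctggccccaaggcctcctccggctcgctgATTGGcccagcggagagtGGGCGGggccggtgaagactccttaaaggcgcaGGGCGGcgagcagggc
Fos: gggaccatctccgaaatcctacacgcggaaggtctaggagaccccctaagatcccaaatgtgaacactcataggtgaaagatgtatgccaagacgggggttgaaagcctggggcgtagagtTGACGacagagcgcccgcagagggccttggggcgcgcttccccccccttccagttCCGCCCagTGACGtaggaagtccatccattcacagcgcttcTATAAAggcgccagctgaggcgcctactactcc
Slc17a7: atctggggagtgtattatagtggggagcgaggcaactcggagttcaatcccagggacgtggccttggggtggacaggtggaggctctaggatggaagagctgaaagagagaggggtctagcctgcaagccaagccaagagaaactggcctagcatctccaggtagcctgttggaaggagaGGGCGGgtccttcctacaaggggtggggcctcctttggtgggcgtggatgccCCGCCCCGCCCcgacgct
Neurod2: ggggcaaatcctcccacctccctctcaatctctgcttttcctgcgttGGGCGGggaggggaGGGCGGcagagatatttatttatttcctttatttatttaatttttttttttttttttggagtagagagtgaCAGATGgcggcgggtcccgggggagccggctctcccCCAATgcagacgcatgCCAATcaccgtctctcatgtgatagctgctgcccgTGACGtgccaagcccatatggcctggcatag

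The HSP70 windows were identical at 247 of 250 positions (98.8%), and both held GAANNTTC 104 bases before the start, a match found in 6.69% of all 32851 upstream windows of that length. Fos held TATAAA 33 bases and TGACG 66 and 129 bases before the start, and Neurod2 held TGACG 31 bases before its own. TATAAA occurs in 12.4% and TGACG in 17.8% of windows. Every window shown held GGGCGG, with an overlapping pair in Slc17a7, as did 32.7% of all windows. CAGATG was in Neurod2 and in 14.4% of windows. CCAAT was in both HSP70 windows, in Neurod2 and in 33.8% of windows. The matches are short and common, and describe these letters alone.

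Genes that answer glucocorticoids formed another set. Zbtb16, a glucocorticoid-induced transcription factor, was at 55.4 CPM in WT replicate 2 and 7.90 to 17.7 in the other 6 (edgeR adjusted p = 1.01e-20), and the lipid droplet gene Plin4 was at 29.1 against 4.23 to 11.8 CPM. Sgk1, a kinase induced by steroids, was at 287 CPM in WT replicate 2 and 261 in WT replicate 5, against 94.5 to 199 CPM in the rest. Of 15 members tested, 5 were beyond the trend (33.3% beside 3.66% of all genes). Of the 15, 10 were highest in WT replicate 2, which was highest for 14.2% of all genes tested. Without WT replicate 2, 1 of the 15 passed, Sgk1, beside 2.75% of all genes. Zbtb16 and Plin4 then did not pass (edgeR adjusted p = 0.774 and 0.365). The best-known target, Fkbp5, was also highest there at 61.6 CPM but did not pass (edgeR adjusted p = 1.00). The clock gene Per2, which steroids also induce, was at 90.4 CPM in the same library against 41.0 to 60.8 CPM. The choroid plexus list was highest in that library as well, and its part in these values was not tested.

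**Figure D5:**
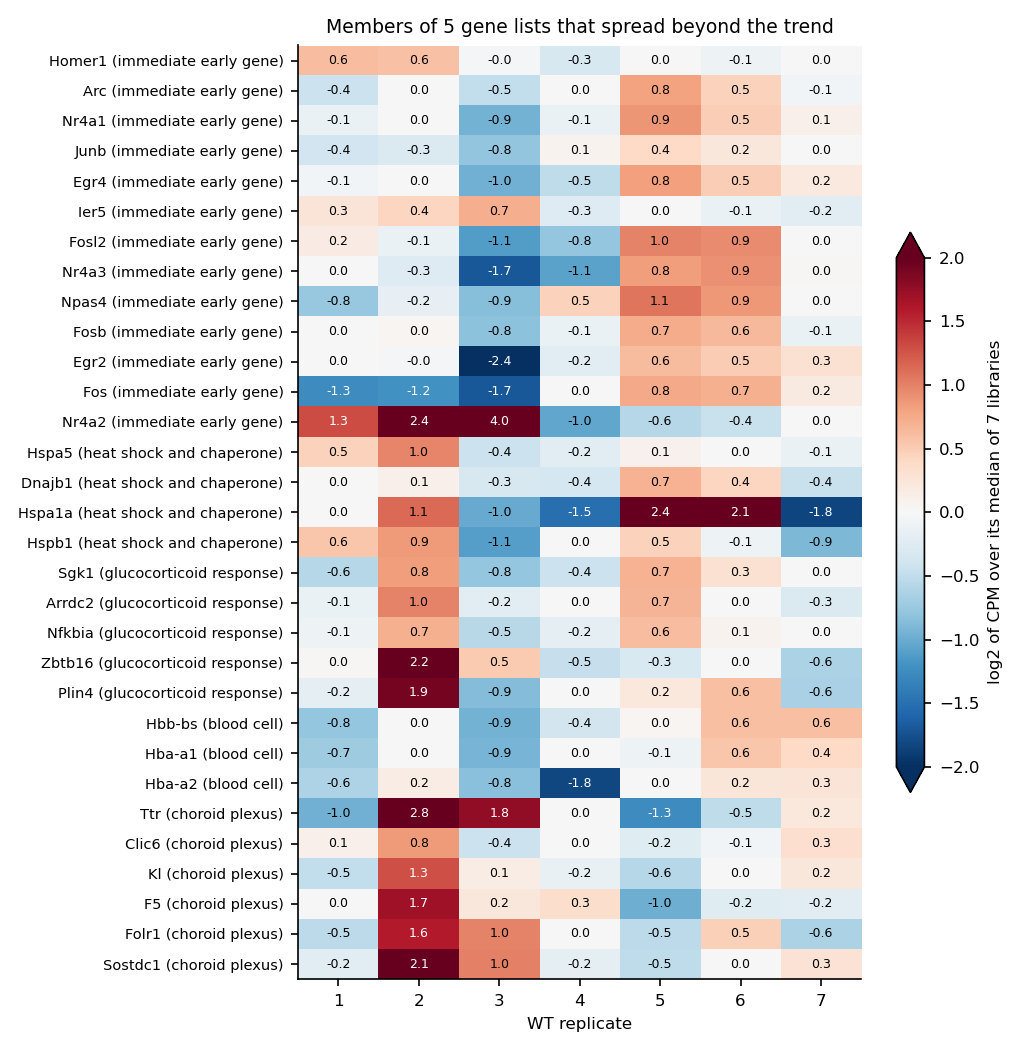
The members of the immediate early, heat shock, glucocorticoid, blood and choroid plexus lists that spread beyond the trend, as log2 of CPM over the gene's median of the 7 WT libraries (values printed). WT replicates 5 and 6 are red for most immediate early genes, and WT replicate 2 for glucocorticoid and choroid plexus genes.

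Haemoglobin genes, which mark red blood cells left in the tissue, differed between mice. Hbb-bs ran from 41.1 CPM in WT replicate 3 to 119 and 120 in WT replicates 6 and 7 (edgeR adjusted p = 3.05e-11), and Hba-a1 from 28.6 to 79.8 CPM in the same direction. Of the 4 blood genes tested 3 were beyond the trend (75% beside 3.66% of all genes), with and without WT replicates 2 or 3. The haemoglobin genes have near-identical copies, so the split between them is uncertain. Vessel genes followed another order: Flt1, a receptor for VEGF, was at 67.8 CPM in WT replicate 1 against 23.2 to 52.3, and the tight junction gene Cldn5 at 30.7 against 10.7 to 21.4 CPM. Both are in the endothelial list, of which 3 of 13 passed, or 23.1% beside 3.66% of all genes. Without WT replicate 2, 2 passed, beside 2.75% of all genes. Bsg and Slco1a4 of the same list did not pass.

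Beyond the trend were 4 of 16 interneuron genes (Pvalb, Calb2, Cck and Vip) and 2 of 8 thalamus and pallidum genes (Slc17a6 and Prkcd). That is 25% of each, beside 3.66% of all genes. Without WT replicate 3, 4 of the 16 interneuron genes passed, beside 2.66% of all genes. Sst passed in place of Vip (biological CV of Vip 0.345). Without WT replicate 2, 3 passed, beside 2.75% of all genes, and Calb2 did not (biological CV 0.292). Pvalb was at 119, 107, 91.7 and 98.8 CPM in WT replicates 4 to 7. It was at 34.9 to 50.4 CPM in WT replicates 1 to 3 (edgeR adjusted p = 3.56e-14 for the spread over the 7). Slc17a6, the glutamate transporter of thalamic and other subcortical neurons, ran from 0.915 CPM in WT replicate 2 to 14.5 in WT replicate 7. The GABA transporter Slc6a11 was highest in WT replicate 4, at 371 CPM against 144 to 278 CPM. Chat and Nos1 were level, with biological CVs of 0.113 and 0.0621.

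Most members of the glial lists did not pass, with shares of 5.00% to 10% near or above the 3.66% of all genes. Of 20 astrocyte genes 1 passed: Gfap, the intermediate filament that rises in reactive astrocytes, at 92.3 CPM in WT replicate 3 and 166 to 242 CPM elsewhere (edgeR adjusted p = 0.000825; biological CV 0.257, and 0.142 without WT replicate 3, which did not pass). Myelin had 2 of 20 (Cryab and Opalin), with a median biological CV of 0.151. Of the 20, 15 were lowest in WT replicate 3, which was lowest for 22.1% of all genes tested. The calls of Cryab and Opalin were lost without WT replicate 2 (edgeR adjusted p = 0.0765 and 0.0544). Without WT replicate 3, 3 of the 20 passed, beside 2.66% of all genes. Microglia had 1 of 17 (Fcrls), with the complement gene C1qb at 44.2 to 49.8 CPM in all libraries. Serpina3n, an acute-phase serpin in no list, was at 41.6 CPM in WT replicate 6 and 6.08 to 10.9 CPM in the other 6.

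The housekeeping lists were close to or under the background share of 3.66%. Beyond the trend were 2 of 73 cytosolic ribosomal protein genes (2.74%) and 1 of 77 respiratory chain genes, with median biological CVs of 0.0834 and 0.0997. Without WT replicate 3 those counts were 5 (6.85%) and 3 (3.90%), beside 2.66% of all genes. Glycolysis and ion pumping, which supply and spend the energy of neurons, had the lowest median biological CV of the larger lists, 0.0787 over 22 genes. The summed level of the ribosomal list ran from 12798 CPM in WT replicate 1 to 14902 in WT replicate 7.

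Some genes share exons with a neighbour in the annotation. Trf, the transferrin of oligodendrocytes, shares 63.5% of its exon bases on the same strand with Gm20425 and was at 1.78 to 3.50 CPM. Over all genes tested, 70 shared 50% or more of their exon bases this way, with a median of 1.01 CPM per kilobase against 4.92 for the other 14933. None of the 71 leading genes was among the 70. Whether reads were lost to the overlap was not tested.

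The leading WT genes were also compared with the knock-in lines, with all 15 libraries in 1 fit. Of 71 genes in the union of the lists of 50, 0 passed edgeR's quasi-likelihood test in E1 against WT and 0 in KI-96 against WT at an adjusted p under 0.05, with 3 and 6 at an unadjusted p under 0.05. Over all 18278 genes tested, 1 (0.00547%) and 0 (0%) passed, with 1599 and 1916 at an unadjusted p under 0.05, and DESeq2 called 58 and 72. The median log2 difference of the 71 was 0.07 for E1 minus WT and 0.02 for KI-96 minus WT. The differences ran from -0.38 (Mbp) to 0.42 (Mt3) in E1, and from -0.38 (Penk) to 1.12 (CT010467.1) in KI-96. DESeq2 called 0 of the 71 in E1 and 1, Eef2, in KI-96. E1 replicate 4 decided much of the first count: without it, 257 of 18676 genes passed, Kif5a among the leading ones. Without WT replicate 1, 12 genes passed in E1 and 11 in KI-96, none of them a leading gene.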

How the data were processed

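RNA was extracted with a lipid tissue kit from the striatum of 15 mice, per the labels' protocols. The deposited table holds raw counts per gene, which the authors left unnormalised. STAR, HTSeq, DESeq2 1.24.0 and the build GRCm38 are named in the submitters' processing notes, with no role or order, and the sources used here do not give the strand setting. Of the 54232 identifiers, 54165 matched the GENCODE M21 annotation of GRCm38, and 49858 of all identifiers were autosomal.

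CPM were computed with the 7 WT libraries' effective sizes (TMM, edgeR 4.0.16 in R 4.3.3) and divided by kilobases of merged exon; genes under 0.2 kilobases were not ranked per length. edgeR's filter at a minimum count of 10 left 15003 autosomal genes. Spread was tested with a Poisson chi-square test and with edgeR's goodness-of-fit against the trended dispersion, Benjamini-Hochberg adjusted over the 15542 genes tested on all chromosomes, at 0.05. Knock-in lines were compared by edgeR's quasi-likelihood test over 15 libraries, with DESeq2 1.42.0 as an alternative. The scripts were tested on simulated data.

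Named genes were the 3 markers, the 20 highest by each measure, the 25 most and 15 least variable, and in each list the 4 highest per kilobase and the 2 most variable; other list members named, and Serpina3n and Eno1b, were chosen after their values were seen. Genes and lists were chosen with earlier results of these data known. The mice carry different identity numbers, so the libraries are separate animals. Libraries of different groups with the same replicate number correlated at -0.10 to 0.19 in their deviations, so the numbers were not taken as pairs. No 2 WT libraries agreed within counting noise (chi-square per degree of freedom of at least 5.72 over 21 pairs). A few genes that these rules name are not reported here.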

Additional observations from a re-analysis of the deposited data

Results flagged for a closer look

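Each of 94 named genes and 35 list sums was examined for 1 WT library far from the other 6 (a gap above Dixon's 95% critical value for 7 samples, on the log2 scale), which chance gives in about 1 of 20 groups, or 5%. The gap was found for 25 of the 129, and in 17 of them the library was WT replicate 3. The genes overlap with those chosen for their spread, so the count is a description.

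In WT replicate 3 the genes far above the rest, in CPM, were Slc17a7 at 826, Cck at 155, Neurod2 at 50.7, Slc30a3 at 43.6, Nrn1 at 40.7, Rtn4r at 37.3, Myl4 at 16.0, Prss12 at 14.4, Wnt9a at 11.8, Rspo2 at 9.11, Bdnf at 8.46 and Wnt10a at 7.33. Mobp, a myelin gene, was far below the rest there, at 1460 CPM. Among summed lists, WT replicate 3 was high for cortical excitatory neurons (1246 CPM), vesicle release (13946 CPM) and MHC class I (203 CPM), and low for meningeal fibroblasts (16.3 CPM).

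WT replicate 2 stood alone for Zbtb16 at 55.4 CPM and for the choroid plexus list at 937 CPM. WT replicate 6 did for Serpina3n at 41.6, Cdhr1 at 28.2 and Tpm3-rs7 at 25.3 CPM. WT replicate 7 was high for AA465934 at 11.0 CPM, WT replicate 5 differed for Hnrnpr at 137 CPM within a narrow range, and WT replicate 1 was low for the pituitary hormone list at 2.85 CPM.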

How the results depend on the processing

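The number of autosomal genes beyond counting noise lay between 9090 and 16080, and the number beyond the trend between 384 and 600, over all settings of scaling, filter and threshold; leaving out 1 WT replicate gave 11768 to 12176 and 408 to 473. The median biological CV was 0.0935 over genes with a mean of at least 10 CPM, 0.140 with edgeR's tagwise dispersion, and 0.0985 to 0.114 when 1 WT replicate was left out, lowest without WT replicate 3. Of the 50 leading genes per kilobase, 42 stayed with the length of the longest transcript. Leading WT genes called in E1 were 0 to 1 when 1 replicate was left out (1 without E1 replicate 4), and DESeq2 called 1 in KI-96. With the replicate block, 0 leading genes were called in either line, and 4 and 6 of all genes. Of 384 alternatives for 48 single genes, 369 kept the call, 14 lost it, each when the gene's own extreme library was left out, and 1 gained it (Ppp1r1b); none reversed. The cause of these shifts was not tested. With 7 mice, no depth limit applies to the leading genes; the 220 protein-coding and long noncoding genes at a mean of 1 CPM or more that fell under the filter have no test beside the fit without it.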
